A study of Mus musculus with 14 samples.

Results

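Normal erythroid maturation was described by setting 2 fractions of mouse fetal liver of stage E14.5 against each other, across all genes. The Ter119neg group held 2 libraries (A from mouse 3, B from mouse 4) and the Ter119pos group held 2 libraries (A from mouse 5, B from mouse 4). All 4 libraries came from mice with a floxed, undeleted Prmt5 gene on both alleles (PRMT5fl/fl) and no Cre transgene, and the mice are called wild type (WT) here, as in the labels. They were chosen by these labels alone and are 4 of the 14 libraries of the study, which otherwise examined loss of the arginine methyltransferase Prmt5. Mouse 4 gave both fractions, so the groups share 1 animal. The labels give neither strain nor sex. The 4 other fetal libraries, from mice with Vav-cre, entered the fit only as a source for the estimate of spread, and no value of theirs is reported. The measurement was RNA sequencing of total RNA depleted of ribosomal RNA, given as estimated counts per gene. Total counts were 26162877 and 24341843 in Ter119neg A and B, and 21017228 and 19880052 in Ter119pos A and B.

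In the fetal liver, red cell precursors pass from progenitors that depend on the receptor Kit, through erythroblasts that depend on erythropoietin, to cells that pack themselves with hemoglobin, condense the nucleus and expel it. Ter119 is a surface antigen that appears as erythroblasts mature, so sorting on it parts late from early precursors. The Ter119-negative side of such a sort is a mixture, since it also keeps the other blood cells and any liver cells of the organ. Hemoglobin is built from alpha-type and beta-type globin chains and heme, and heme needs iron brought in by the transferrin receptor.

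The fraction labels were checked against defining markers. All 5 erythroblast markers described here (Slc4a1, Alas2, Hbb-bs, Hba-a1 and Epb42) were called higher in Ter119pos. Epb42, the gene of the membrane skeleton protein 4.2, stood at 9.44 and 12.3 CPM in the Ter119neg libraries and at 1507 and 1272 CPM in the Ter119pos libraries, where CPM is the usual depth-normalised count, here with TMM-scaled library sizes. Its log2 fold change was 7.00 (SE 0.211, edgeR adjusted p = 5.93e-11). The summed level of the 5 markers was 278 and 233 CPM in Ter119neg and 198000 and 173000 CPM in Ter119pos, so the groups lay far apart. Of 5 markers of erythroid progenitors, Kit, Gata2, Myb and Cd34 were called lower and Tfrc higher. Their sum was 539 and 535 CPM in Ter119neg and 4400 and 3860 CPM in Ter119pos, where Tfrc alone stood at 4376 and 3830 CPM.

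Markers of other cell types were present on the Ter119-negative side and lower, but above 0, on the Ter119-positive side. Summed over Mpo, Elane, Prtn3, Csf3r and S100a8, the granulocyte markers stood at 1140 and 1250 CPM in Ter119neg and at 103 and 62.1 CPM in Ter119pos, with 5 of 5 called lower. Hepatoblast markers (Alb, Afp, Apoa1, Ahsg and Ttr) summed to 376 and 228 CPM in Ter119neg and to 37 and 26.1 CPM in Ter119pos, with 5 of 5 called lower. Macrophage markers summed to 114 and 120 CPM in Ter119neg and to 60.6 and 32.1 CPM in Ter119pos, with 6 of 7 called lower. Macrophages are known to surround maturing erythroblasts in fetal liver. Of 4 megakaryocyte markers, 3 were called lower and Gp9 was called higher (log2 fold change 1.06), a direction that turned when libraries were scaled by total counts. None of these markers was at 0 in both Ter119pos libraries. In bulk RNA, fewer cells of a type and less RNA per cell cannot be told apart, and the part of such admixed cells in each loss described here was not tested.

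**Figure D1:**
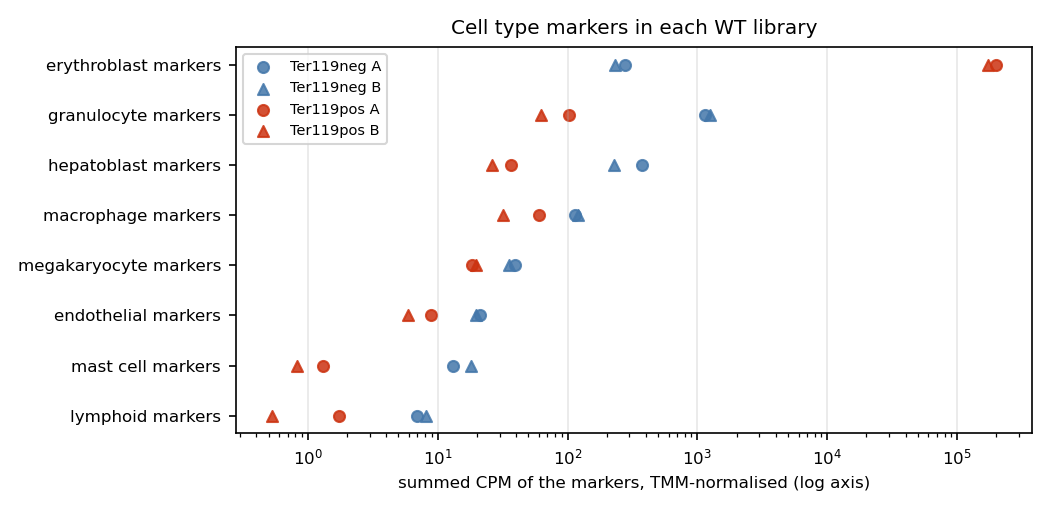
Summed level of defining markers of 8 cell types in each WT library, in TMM-normalised CPM on a log axis. The markers of erythroid progenitors are not drawn. Circles are replicate A and triangles replicate B of Ter119neg (blue) and Ter119pos (red). The erythroblast markers lie between 233 and 278 CPM in Ter119neg and between 173000 and 198000 CPM in Ter119pos, and the markers of the other 7 types lie lower in both Ter119pos libraries.

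Prmt5 itself, the methyltransferase whose floxed alleles these mice carry, stood at 52.3 and 51.8 CPM in Ter119neg and at 13.8 and 17.7 CPM in Ter119pos. It fell by 1.72 on the log2 scale (SE 0.138, edgeR adjusted p = 1.99e-07). All 4 libraries expressed the Y-linked genes Ddx3y, Eif2s3y, Kdm5d and Uty at 9.86 CPM or more and Xist at 1.80 CPM or less.

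Most measured genes differed between the fractions. Of 15566 genes tested, 11876 (76.3%) were called at an edgeR adjusted p under 0.05. Of these, 5584 (35.9% of all tested) were higher in Ter119pos and 6292 (40.4%) were lower. A change of at least 2-fold was called for 4033 genes (25.9%) upward and 4725 genes (30.4%) downward. The median log2 fold change of all genes tested was -0.19. In what follows a gene is said to rise or fall only if it was called in this way, log2 fold changes are those of Ter119pos over Ter119neg from edgeR, and the counts of list members stand against these shares.

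The split depends on how the libraries are scaled. TMM factors were 1.97 and 1.72 in Ter119neg and 0.792 and 0.855 in Ter119pos. With libraries scaled by total counts alone, the median of all genes shifted by 1.16 downward on the log2 scale, and 20.3% of called genes were higher, against 47.0% with TMM. Under 6 scalings (TMM, RLE, upper quartile, total counts, globin genes removed, protein-coding genes only), 2582 genes were called higher and 5853 called lower in every case. Globin genes have no value in the fit without them, and their TMM result was used there. A log2 fold change between 0 and about 1.16 is therefore an increase relative to the bulk of transcripts, not in share of the library.

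Globin messages took a larger share of the Ter119pos libraries, and ribosomal protein messages and 7SL RNA a smaller one. The globin chain genes held 0.0917% and 0.0679% of counts in Ter119neg and 25.1% and 24.6% in Ter119pos. Ribosomal protein genes, 86 in number, held 6.09% and 4.93% in Ter119neg and 1.78% and 2.18% in Ter119pos. With TMM, 38 of the 84 tested were called lower and 1 higher. Their median log2 fold change was -0.37, against -0.19 for all genes. Only 3.57% were called and at least 2-fold lower, against 30.4% of all genes, so the smaller share is not a marked fall relative to other genes. The 3 copies of 7SL RNA, the RNA of the signal recognition particle that guides secreted and membrane proteins, held 11.4% and 16% in Ter119neg and 4.28% and 4.64% in Ter119pos. In each of these classes the groups did not overlap.

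Mitochondrial ribosomal RNA kept a similar share, with 13% and 14.7% in Ter119neg against 12.3% and 13.3% in Ter119pos, and there the groups overlapped. Protein-coding genes other than globins held 62.4% and 53.6% of counts in Ter119neg and 50.4% and 50.2% in Ter119pos. Among single genes, Rpph1, the RNA of ribonuclease P, stood at 7296 and 11280 CPM in Ter119neg and at 2631 and 1849 CPM in Ter119pos (log2 fold change -2.05, SE 0.295, edgeR adjusted p = 3.97e-05). Rmrp, the RNA of the related ribonuclease MRP that acts in ribosomal RNA processing, fell by 1.68 on the log2 scale. Rn7s1 and Rn7s2 (7SL) and Rn7sk (7SK, which holds back the elongation factor P-TEFb) had log2 fold changes of -0.44, -0.53 and -0.26 and were not called by edgeR with TMM. All 3 were called lower under total counts, with no filter on low counts and with the length trend removed. With mouse as a block they were at -0.72, -0.85 and -0.73. That comparison rests on mouse 4 alone, and its spread on the mice with Vav-cre, so it measures no spread among WT animals. Without Ter119neg library A, Rn7s1 was at -0.82 and Rn7s2 at -0.87. With the GC trend removed none of the 3 was called (0.40, 0.30 and 0.30).

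**Figure D2:**
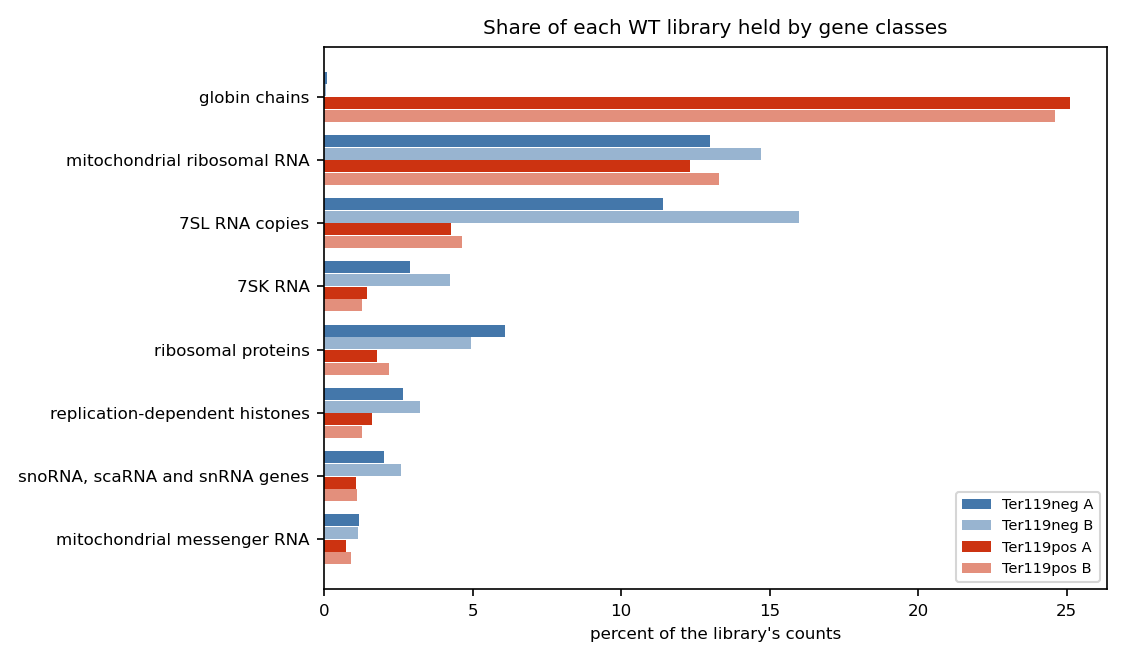
Percent of the counts of each WT library held by 8 gene classes, as bars that start at 0. Blue bars are Ter119neg and red bars Ter119pos, dark for replicate A and pale for replicate B. The globin bars reach 25.1% and 24.6% in Ter119pos and are barely visible in Ter119neg, and 7SL RNA and ribosomal protein bars are shorter in both Ter119pos libraries.

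The 12 named genes with the largest rise were the globins Hbb-bs, Hbb-bt, Hba-a1, Hba-a2 and Hbq1b, the heme enzyme Alas2, the anion exchanger Slc4a1, and Fn3k, Apol11b, Cadm3, Slfn14 and Hist2h3c1. Fn3k encodes fructosamine 3-kinase, which removes sugar adducts from proteins. It stood at 0.136 and 0.262 CPM in Ter119neg and at 251 and 200 CPM in Ter119pos (log2 fold change 10.15, SE 0.238, edgeR adjusted p = 5.22e-11). Both Ter119neg libraries were low and both Ter119pos libraries high, and the choice of these 12 genes required the fractions not to overlap.

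Slfn14, a Schlafen family endoribonuclease tied to platelet and red cell disorders, rose from 0.837 and 1.24 CPM to 395 and 315 CPM (log2 fold change 8.43, SE 0.224). Cadm3, a cell adhesion molecule best known from neurons, rose from 0.234 and 0.262 CPM to 109 and 86.9 CPM (8.61). Apol11b, an apolipoprotein L family gene, rose from 0.0195 and 0.0716 CPM to 28 and 31.7 CPM (9.30, or 8.55 and 10.20 without Ter119neg library A or B). For these 3 genes edgeR adjusted p was at most 5.73e-11, and the libraries of a fraction lay close together beside the gap between fractions.

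Hist2h3c1, a replication-dependent histone H3 gene, had no count in either Ter119neg library and 7.82 and 12.6 CPM in Ter119pos. Against a floor of 3 counts over the Ter119neg group it was at least 318-fold higher. It has a near-identical copy, Hist2h3c2, and how reads were divided between such copies by the estimation makes its value uncertain. The same holds for Hbb-bs against Hbb-bt and Hba-a1 against Hba-a2.

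**Figure D3:**
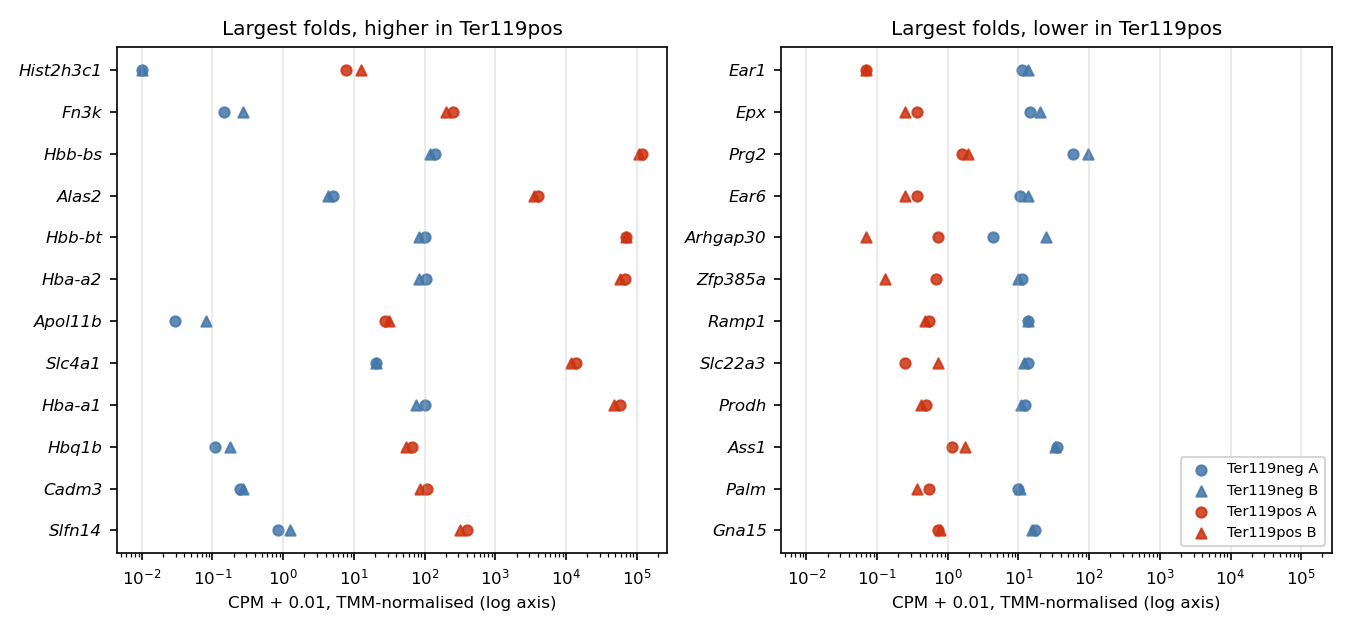
Level of the named genes with the largest folds in each WT library, as CPM + 0.01 on a log axis, with genes higher in Ter119pos on the left and lower on the right. Blue is Ter119neg and red Ter119pos, circles replicate A and triangles replicate B. No gene shows overlap between the fractions, and the libraries of a fraction lie well apart for Arhgap30, at 4.34 and 24.7 CPM in Ter119neg and at 0.722 and 0.0589 CPM in Ter119pos.

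All 9 globin genes tested rose, and each was called higher under every scaling that kept the globin genes. The adult beta chain Hbb-bs went from 141 and 121 CPM to 120700 and 108400 CPM (log2 fold change 9.77, SE 0.488, edgeR adjusted p = 2.54e-09). The adult alpha chain Hba-a1 went from 102 and 75.1 CPM to 57500 and 47880 CPM (9.22, SE 0.413). The median of the 9 was 9.22, or 8.81 with Hbq1a at its lower bound, against -0.19 for all genes.

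The embryonic chains rose as well and by less. Hbb-y, the embryonic epsilon-type chain, went from 12.1 and 23.3 CPM to 1049 and 2498 CPM (log2 fold change 6.65, SE 0.482), and Hba-x, the zeta chain, from 3.38 and 4.72 CPM to 187 and 428 CPM (6.25, SE 0.372). Without Ter119pos library B these were 5.88 and 5.52. Embryonic chains made up 5.24% and 10.7% of beta-type counts in Ter119neg and 0.633% and 1.52% in Ter119pos. The Wilson 95% intervals for these shares were 4.87 to 5.63, 10.1 to 11.3, 0.624 to 0.642 and 1.5 to 1.53%, and cover counting error only. The share was lower in both Ter119pos libraries, and within each fraction the library of mouse 4 had the higher share. Hbq1a, a theta-type chain, had no count in Ter119neg and was at least 310-fold higher in Ter119pos.

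Every listed gene of heme synthesis rose. All 14 were called higher, 12 of them under all 6 scalings, with a median log2 fold change of 3.74. The 8 enzymes of the path each rose at least 2-fold, by 3.05 to 9.68 on the log2 scale. Alas2, the erythroid enzyme of the committed step, stood at 5 and 4.25 CPM in Ter119neg and at 4013 and 3570 CPM in Ter119pos (log2 fold change 9.68, SE 0.269, edgeR adjusted p = 5.29e-11). It had the highest change of the 8, with both Ter119pos libraries far above both Ter119neg libraries.

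Fech, ferrochelatase, which inserts iron into the finished ring, went from 52.2 and 53.2 CPM to 2408 and 2201 CPM (log2 fold change 5.45, SE 0.187). Ppox, the enzyme before it, went from 20.2 and 24.8 CPM to 736 and 632 CPM (4.93, SE 0.174). Alad, the enzyme after Alas2, had the smallest change of the 8 enzymes (3.05, SE 0.138, 67.9 and 67.1 CPM to 578 and 542 CPM). Of the transporters that serve the path, the mitochondrial transporter Abcb10 rose most (4.99, SE 0.172) and the glycine carrier Slc25a38 by 2.87 (SE 0.12).

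Alas1, the form of the first enzyme used in most tissues, moved the other way. Per kilobase of its longest annotated transcript, Alas1 averaged 11.4 CPM and Alas2 2.27 CPM in Ter119neg, and 1.48 and 1860 CPM in Ter119pos. The order of the 2 genes was thus opposite in the 2 fractions.

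Promoters of the most strongly rising genes are shown because these genes move together and the globins and Alas2 are textbook targets of the erythroid factors GATA1 and KLF1. Of the 12 genes, 9 had an entry in the RefSeq promoter table (build GRCm38.p6), which gives 250 bases before to 50 bases after a transcript start, and 6 of the 9 held the GATA motif AGATAA or TGATAA on either strand. Capitals mark these motifs and the motif CCNCNCCC (either strand, overlapping matches joined). Shown are Hbb-bs (chr7:103827879-103828178, minus strand), Hba-a2 (chr11:32296242-32296541, plus strand), Alas2 (chrX:150547167-150547466, plus strand), Apol11b (chr15:77643237-77643536, minus strand) and Slfn14 (chr11:83286677-83286976, minus strand), which hold the GATA motif, and Hbb-bt (chr7:103813874-103814173, minus strand) and Cadm3 (chr1:173367646-173367945, minus strand), which rose as well and do not. Hbq1b is the other rising gene without it. Hba-a1 holds it and is not shown. Its promoter has nearly the same sequence as that of Hba-a2, so the 6 count this sequence for both genes. Alas1 (chr9:106247905-106248204, minus strand, the upstream of 2 entries), which fell, is added.
Hbb-bs: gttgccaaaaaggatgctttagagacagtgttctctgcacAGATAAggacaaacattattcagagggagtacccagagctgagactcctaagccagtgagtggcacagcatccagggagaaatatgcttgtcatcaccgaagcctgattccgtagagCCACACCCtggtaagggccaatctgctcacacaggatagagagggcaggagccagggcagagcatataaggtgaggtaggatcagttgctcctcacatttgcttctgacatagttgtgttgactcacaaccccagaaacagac
Hba-a2: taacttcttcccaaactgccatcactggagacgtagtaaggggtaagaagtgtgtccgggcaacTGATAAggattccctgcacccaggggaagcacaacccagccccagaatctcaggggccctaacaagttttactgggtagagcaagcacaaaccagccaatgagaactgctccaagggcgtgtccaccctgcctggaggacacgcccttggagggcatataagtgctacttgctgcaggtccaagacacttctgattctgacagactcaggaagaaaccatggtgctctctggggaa
Alas2: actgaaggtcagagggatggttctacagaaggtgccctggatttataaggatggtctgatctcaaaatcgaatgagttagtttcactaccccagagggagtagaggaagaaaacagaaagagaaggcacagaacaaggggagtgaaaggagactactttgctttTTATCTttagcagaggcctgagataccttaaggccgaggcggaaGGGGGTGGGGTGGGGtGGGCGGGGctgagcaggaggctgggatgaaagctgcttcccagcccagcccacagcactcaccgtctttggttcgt
Apol11b: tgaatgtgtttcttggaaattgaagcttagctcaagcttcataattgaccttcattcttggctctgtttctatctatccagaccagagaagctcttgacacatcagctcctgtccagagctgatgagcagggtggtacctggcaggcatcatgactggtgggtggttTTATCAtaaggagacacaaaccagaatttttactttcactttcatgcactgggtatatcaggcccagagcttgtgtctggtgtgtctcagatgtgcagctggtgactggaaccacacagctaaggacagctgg
Slfn14: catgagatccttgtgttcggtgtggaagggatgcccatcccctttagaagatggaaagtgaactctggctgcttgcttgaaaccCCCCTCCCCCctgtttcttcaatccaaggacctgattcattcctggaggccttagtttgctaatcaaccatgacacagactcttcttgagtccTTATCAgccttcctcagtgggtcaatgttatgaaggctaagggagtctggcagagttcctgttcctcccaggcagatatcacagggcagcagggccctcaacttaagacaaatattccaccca
Hbb-bt: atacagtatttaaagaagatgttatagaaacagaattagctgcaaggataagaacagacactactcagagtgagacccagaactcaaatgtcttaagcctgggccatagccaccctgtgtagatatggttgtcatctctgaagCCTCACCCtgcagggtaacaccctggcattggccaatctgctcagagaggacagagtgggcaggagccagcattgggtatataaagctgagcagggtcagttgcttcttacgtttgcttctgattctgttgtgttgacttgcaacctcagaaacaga
Cadm3: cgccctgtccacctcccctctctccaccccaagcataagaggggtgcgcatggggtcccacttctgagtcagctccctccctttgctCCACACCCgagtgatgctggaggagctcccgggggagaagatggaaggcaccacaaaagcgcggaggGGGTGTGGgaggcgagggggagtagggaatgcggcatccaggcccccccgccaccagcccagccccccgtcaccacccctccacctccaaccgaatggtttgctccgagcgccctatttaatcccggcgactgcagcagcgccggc
Alas1: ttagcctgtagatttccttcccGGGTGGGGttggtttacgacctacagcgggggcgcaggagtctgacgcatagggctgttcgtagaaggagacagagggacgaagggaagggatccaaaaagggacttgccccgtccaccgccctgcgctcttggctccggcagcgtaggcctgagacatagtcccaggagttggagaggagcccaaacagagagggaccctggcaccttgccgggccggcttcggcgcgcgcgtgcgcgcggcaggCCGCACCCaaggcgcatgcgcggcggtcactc

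The GATA match began 210 bases before the start in Hbb-bs, 186 in Hba-a2, 86 in Alas2, 83 in Apol11b and 73 in Slfn14, and neither Alas1 entry held one. The capitals of Hbb-bs near the centre include the CACCC box of adult beta globin. Across the table, 11.1% of 12990 promoters of tested genes held the GATA motif, 11.6% of those of genes called and at least 2-fold higher, and 11.7% of those of genes called and at least 2-fold lower. Among genes called and at least 16-fold higher, a group set after the values were seen, the share was 17.4% of 455 promoters. Among genes at least 16-fold lower it was 14.6% of 371 promoters. The mean GC content of these promoters was 58.1% and 59.3%, against 60.2% for all genes tested, and its part in the shares was not tested. CCNCNCCC was in 66.5% of promoters of tested genes, 67.4% of those 2-fold higher and 67.7% of those 2-fold lower. A match is a description of these letters, not of binding.

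Genes of the red cell membrane and its skeleton mostly rose. Of 30 tested, 28 were called higher and 2 lower, with a median log2 fold change of 4.26, and 26 were higher under all 6 scalings. Slc4a1, band 3, the chloride and bicarbonate exchanger that anchors the skeleton, went from 20.6 and 20.5 CPM to 14110 and 11760 CPM (9.30, SE 0.279, edgeR adjusted p = 5.84e-11). Sptb, the beta spectrin of its filaments, rose by 6.07 (SE 0.219), and Epb41, protein 4.1, by 5.57 (SE 0.187).

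Genes of blood group proteins were among them. Kel rose by 6.05 (18.7 and 19.7 CPM to 1360 and 1177 CPM), Rhd by 5.09 and Rhag by 4.13 on the log2 scale. The 2 genes that fell were Tmod3 (-0.33) and Tpm3 (-0.65), broadly expressed actin cappers and binders, while their relatives Tmod1 (6.97) and Tpm1 (2.78) rose. Tmod3 was not called without Ter119pos library B (-0.25, edgeR adjusted p = 0.127) or under every scaling.

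Transporters that equip the red cell also rose, 24 of 27 listed with a median log2 fold change of 2.26, and 2 fell. Slc2a1, the glucose transporter GLUT1, went from 26.5 and 28.9 CPM to 2218 and 2038 CPM (6.26, SE 0.198). Slc6a9, a glycine transporter, rose by 6.18, and Slc43a1, an amino acid transporter, by 4.97. Car2, carbonic anhydrase 2, rose by 4.57, from a mean of 161 to 3810 CPM. Slc12a7 (-2.01) and Car3 fell, and Car3 had 67 counts over Ter119neg and 3 over Ter119pos, a ratio of 8.05-fold with an exact 95% interval of 2.64 to 40.

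Genes of iron uptake and use mostly rose with TMM. Of 18 genes, 12 were called higher and 4 lower, with a median of 1.40 that became 0.24 under total counts. Under all 6 scalings, 8 were higher and 3 lower. Tfrc, the transferrin receptor, went from 220 and 234 CPM to 4376 and 3830 CPM (log2 fold change 4.17, SE 0.182, edgeR adjusted p = 8.17e-10). Slc25a37, mitoferrin 1, which carries iron into mitochondria, went from 35.1 and 35.1 CPM to 8903 and 7582 CPM (7.87, SE 0.242). Ncoa4, the receptor that delivers ferritin for breakdown, rose by 4.56, and the ferritin chains Fth1 and Ftl1 by 2.78 and 2.56.

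The iron genes that fell were Aco1 (-1.60), an aconitase that is also an iron-sensing RNA-binding protein, the iron chaperones Pcbp1 (-1.26) and Pcbp2 (-0.80), and Slc25a28 (-0.51), mitoferrin 2. Of these, Slc25a28 was not called when any of the 4 libraries was left out (edgeR adjusted p from 0.0565 to 0.121). Of 8 genes of heme export and breakdown, 4 rose and 2 fell, with a median of 0.79 that became -0.37 under total counts. Blvrb, biliverdin reductase B, rose by 3.30, and Hmox2, the constitutive heme oxygenase, fell by 1.15.

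Transcription factors of the erythroid program mostly rose. Of 22 tested, 16 were called higher and 3 lower, with a median of 1.70, and 12 were higher under all 6 scalings. Gata1, the master factor of red cells, stood at 54.4 and 50.1 CPM in Ter119neg and at 198 and 190 CPM in Ter119pos (log2 fold change 1.89, SE 0.116, edgeR adjusted p = 1.55e-08). Klf1 rose by 1.83 (SE 0.134), Tal1 by 3.19 and Nfe2 by 3.58.

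Sox6, a repressor of embryonic globin, had the largest change of the list, from 4.22 and 4.8 CPM to 698 and 562 CPM (7.13, SE 0.202). E2f2 rose by 6.06, Klf3 by 4.30 and Foxo3, which drives late maturation genes, by 4.10. Myb fell from 130 and 124 CPM to 10.2 and 12.2 CPM (-3.50, SE 0.151) and Gata2 from 18.2 and 16.4 CPM to 0.782 and 0.883 CPM (-4.37, SE 0.229). Runx1 fell by 0.46. These 3 are factors of stem and progenitor cells.

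Genes of stem and progenitor cells were mostly lower. Of 26 tested, 24 were called lower and 1, Lmo2, higher, with a median log2 fold change of -3.63 (-3.54 with Ly6a at its bound). Kit, the receptor of stem cell factor, went from a mean of 103 CPM to 7.85 CPM (-3.71). Cd34 went from 63.1 to 3.71 CPM (-4.08) and Myc from 89.3 to 10.4 CPM (-3.10). Mycn had 564 counts over the Ter119neg group and 2 over Ter119pos, a ratio of 102-fold with an exact 95% interval of 28 to 841 that covers counting error only.

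Genes of erythropoietin and stem cell factor signaling moved both ways. Of 16 tested, 8 rose and 7 fell, each under all 6 scalings. Epor, the erythropoietin receptor, rose by 2.54 and Jak2, its kinase, by 2.71. The feedback genes Socs3 (5.63) and Cish (3.63), and the kinase Pim1 (4.52), rose, while Stat5a fell by 3.17 and Stat5b by 1.43. Erfe, erythroferrone, the hormone by which erythroblasts lower hepcidin, rose from a mean of 1.48 to 12.7 CPM (3.08).

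Genes of the apoptosis list moved both ways. Bcl2l1, the gene of Bcl-xL, a survival protein of late erythroblasts, went from a mean of 11.5 to 818 CPM (log2 fold change 6.14). Of 19 genes, 7 rose and 11 fell, with a median of -1.10. Among those that fell were the death genes Bak1 (-1.87), Bid (-1.70) and Casp8 (-1.31), and the survival gene Bcl2 (-3.05), each under all 6 scalings.

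The 12 named genes with the largest falls included 4 of eosinophil granules, Ear1, Epx, Prg2 and Ear6. Ear1 had 1146 counts over the Ter119neg group and 2 over Ter119pos, a ratio of 206-fold with an exact 95% interval of 57 to 1710. Ear1 and Ear6 are members of a family of near-identical eosinophil ribonucleases, and their division of reads is uncertain. Epx, eosinophil peroxidase, went from 14.46 and 20.2 CPM to 0.361 and 0.235 CPM (log2 fold change -5.84, SE 0.427, edgeR adjusted p = 8.25e-08), and Prg2, the major basic protein, from 59.5 and 96.4 CPM to 1.56 and 1.94 CPM (-5.47, SE 0.398). Both genes were far lower in each Ter119pos library than in either Ter119neg library, and the choice of these genes required no overlap.

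The other genes with the largest falls were Arhgap30, Zfp385a, Ramp1, Slc22a3, Prodh, Ass1, Palm and Gna15, with log2 fold changes from -5.20 to -4.46. The value of Arhgap30 (-5.20) ranged from -7.84 without Ter119pos library A to -3.55 without Ter119neg library B, was -4.32 without Ter119pos library B, -6.04 without Ter119neg library A and -8.61 with the mouse block, and with limma-voom it was not called (adjusted p = 0.0535). Without Ter119pos library B, Zfp385a (-4.77) was at -4.02 and Slc22a3 (-4.73) at -5.71, and without Ter119pos library A Zfp385a was at -6.46. Ass1, argininosuccinate synthase, went from 35.5 and 33.1 CPM to 1.14 and 1.76 CPM (-4.55, SE 0.189). Ramp1, a partner of the calcitonin-family receptor, went from 13.6 and 13.8 CPM to 0.541 and 0.471 CPM (-4.75, SE 0.222). Prodh, proline dehydrogenase, fell by 4.70 and Gna15, a G protein subunit of blood cells, by 4.46.

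Most genes in the lists of other blood and liver cells fell. Of 25 granulocyte and monocyte genes, 24 were called lower and none higher (median -3.31, which was -4.10 without Ter119pos library A and -3.97 with the mouse block). All 11 genes of mast cells, basophils and eosinophils were lower (median -4.37). Of 20 megakaryocyte and platelet genes, 16 fell and 3 rose (median -2.76, or -2.73 with Gp6 at its bound), and those that rose were Nfe2 (3.58), Tubb1 (1.36) and Gp9. Tubb1 was at 0.72 without Ter119pos library B and was not called under total counts (0.21, edgeR adjusted p = 0.463). Of 15 lymphoid genes, 11 fell and 1, Lck (2.12), rose (median -2.81, which was -3.66 without Ter119pos library A, -2.27 without Ter119pos library B and -3.74 with the mouse block). All 20 hepatoblast genes fell (median -3.07), as did 17 of 20 endothelial and stromal genes (median -2.75).

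Macrophage genes had the median nearest to that of all genes among these lists. Of 21 tested, 10 fell and 3 rose, with a median of -0.63 that was -1.30 without Ter119pos library A, -0.34 without Ter119pos library B and -1.26 with the mouse block. The 3 that rose, Dnase2a, Slc40a1 and Lgmn, did not do so under all 6 scalings. Dnase2a encodes the lysosomal nuclease that digests expelled nuclei, and Slc40a1 is the iron exporter ferroportin. Csf1r, the receptor of macrophage growth factor, fell by 2.09. The MHC and antigen presentation list had 13 of 17 lower and 2 higher (median -2.43).

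Cell division genes were mostly higher in Ter119pos. Of 42 genes of G2 and mitosis, 41 were called higher and none lower, with a median log2 fold change of 2.02, and 27 were higher under all 6 scalings. Mki67, the proliferation marker Ki-67, went from a mean of 359 to 9890 CPM (4.78), and Cdc25b, a phosphatase that triggers mitosis, from 8.86 to 845 CPM (6.58). Cenpf (3.61), Nusap1 (4.01) and Ube2c (3.30) rose with them, all of them mitotic genes.

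S phase genes rose by less and their direction depended on the scaling. Of 46, 36 were called higher and 5 lower with TMM, with a median of 0.78 that became -0.38 under total counts, and 5 were higher and 4 lower under all 6 scalings. Rrm2, the regulated subunit of ribonucleotide reductase, rose by 2.65 and Clspn, a replication checkpoint adaptor, by 2.32. Of the 6 MCM helicase genes, 5 were called higher with TMM, none of them by 2-fold or under all scalings.

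Regulators of G1 changed in both directions, with 12 of 21 higher and 7 lower (median 1.52). The CDK inhibitors Cdkn2d (4.25), Cdkn2c (4.22) and Cdkn1b (3.80), brakes on entry into S phase, rose, whereas Cdkn1c (-2.30) fell. The call of Cdkn1a (-1.37) was lost without Ter119neg library A (0.02, edgeR adjusted p = 0.945) and without Ter119pos library A or B (edgeR adjusted p = 0.135 and 0.167). The G1 kinases Cdk6 (-2.85) and Cdk4 (-1.57) and the cyclins Ccnd1 (-2.44) and Ccnd2 (-2.23) fell, while Ccnd3, the D cyclin of late erythroblasts, rose by 2.51. Rb1, the retinoblastoma protein, rose by 4.03.

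Genes of ribosome biogenesis mostly fell. Of 49 genes, 45 were called lower, all 45 under all 6 scalings, with a median log2 fold change of -1.37. The only gene called higher was Ubtf (0.58), which became -0.59 under total counts and was not called without Ter119neg library B (0.40, edgeR adjusted p = 0.0544). Mybbp1a (-2.56), Rrp9 (-2.69), Bop1 (-2.36) and Nop2 (-1.84) fell, genes that act in ribosomal RNA transcription, processing and modification. Npm1, nucleophosmin, went from a mean of 641 to 269 CPM (-1.25) and Ncl, nucleolin, from 381 to 127 CPM (-1.59).

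All 6 genes of the list for heme-regulated translation rose with TMM, with a median of 2.38 that became 1.21 under total counts. Under all 6 scalings 4 of them were higher, and under total counts 1 was called lower. Eif2ak1, the heme-regulated kinase that restrains globin translation when heme is short, went from a mean of 34.4 to 738 CPM (4.43). Ppp1r15a, which reverses its action on eIF2, went from 7.87 to 529 CPM (6.07), and the target Atf4 rose by 1.99. Of 23 amino acid synthesis and tRNA charging genes, 11 rose and 8 fell, with a median of 0.21 that became -0.96 under total counts. The importers Slc1a5 (4.12) and Slc38a5 (2.84) rose, and the serine synthesis enzymes Phgdh (-2.69), Psat1 (-2.01) and Psph (-1.10) fell.

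Genes of glucose transport and glycolysis moved both ways, with 6 of 23 higher and 13 lower (median -0.94). A group of 9 enzymes, chosen after their values were seen and without the phosphofructokinases and Pklr, runs from glucose phosphate isomerase to lactate dehydrogenase. All 9 were called lower, each under all 6 scalings, with log2 fold changes from -2.70 (Pkm) to -0.94 (Gapdh). Ldha went from a mean of 450 to 90.3 CPM (-2.32). Bpgm, which makes the bisphosphoglycerate that lowers the oxygen affinity of hemoglobin, went from 7.6 to 770 CPM (6.66), and Pklr, the pyruvate kinase of red cells and liver, rose by 1.87.

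Antioxidant genes moved both ways. Of 24 pentose phosphate and antioxidant genes, 15 were higher and 4 lower with TMM, with a median of 0.66 that became -0.50 under total counts, and 9 were higher under all 6 scalings. Cat, catalase, rose by 3.97, Prdx2, the abundant peroxiredoxin of red cells, by 3.81 and Gpx1, glutathione peroxidase, by 3.44. Prdx5 (-2.35), Prdx6 (-0.99) and Prdx1 (-0.84) fell, as did Pgd (-1.93) of the pentose phosphate path.

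Genes of respiration were divided between both directions. Of 28 nuclear genes of oxidative phosphorylation, 9 were called higher and 11 lower (median -0.01), and of 13 protein-coding genes of the mitochondrial genome 2 were higher and 2 lower (median 0.21, which became -0.96 under total counts).

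Genes for clearing organelles mostly rose. Of 24 organelle clearance and autophagy genes, 18 were higher and 4 lower, with a median log2 fold change of 2.11. Bnip3l, the mitophagy receptor Nix that removes mitochondria from reticulocytes, went from a mean of 44.7 to 785 CPM (4.13). Ulk1, an initiating kinase of autophagy, rose by 3.69, and Gabarapl2, a member of the Atg8 family, by 3.92. All 5 Atg8 genes were called higher with TMM, 3 of them under all 6 scalings. Of the conjugation genes, Atg5 fell by 1.19, and Alox15, a lipoxygenase of reticulocytes that eosinophils also express, fell by 5.06 (-5.84 without Ter119pos library B).

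Ubiquitin and extrusion genes gave 16 higher and 6 lower of 22 (median 2.67). Ube2o, the ubiquitin enzyme that strips ribosomes from reticulocytes, went from a mean of 21.2 to 1310 CPM (5.95). Xpo7, a nuclear exporter of maturing erythroblasts, went from 33.3 to 4210 CPM (6.98), and Trim10 from 5.63 to 1170 CPM (7.71). Trim58, which acts in nuclear extrusion, rose by 4.94. Rac2, a small GTPase of blood cells, fell by 1.82.

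Chromatin genes moved both ways. Of 22 listed for chromatin condensation and linker histones, 13 were higher and 5 lower with TMM, with a median of 0.55 that became -0.61 under total counts. The 4 condensin and SMC genes Ncapd2, Ncapg, Smc2 and Smc4 rose by 1.56 to 2.57, though Ncapd2 was not called under total counts (0.39, edgeR adjusted p = 0.0785). H3f3a, a gene of the replacement histone H3.3, went from a mean of 171 to 1290 CPM (2.92). H2afy (-2.47), the gene of macroH2A, and Hmga1 (-2.62), a chromatin architectural protein, fell under all 6 scalings.

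**Figure D4:**
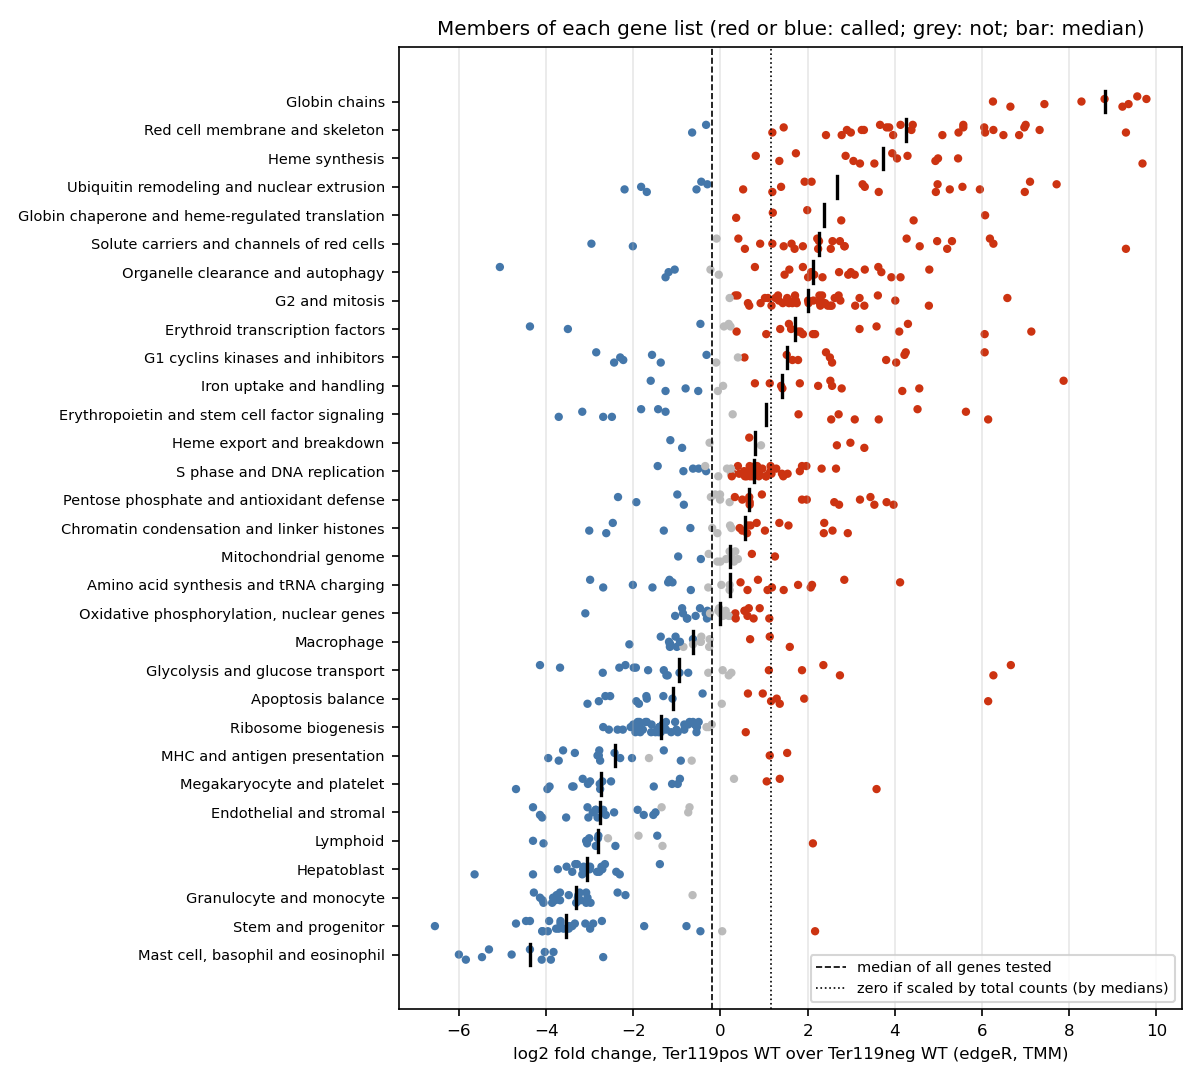
Log2 fold change (Ter119pos WT over Ter119neg WT, edgeR with TMM) of every tested member of 31 gene lists. Red points were called higher, blue called lower and grey not called, genes at 0 in a group are drawn at their bound, and black bars are list medians. The dashed line is the median of all genes (-0.19) and the dotted line marks where 0 would fall if medians were aligned to scaling by total counts. Globin chains lie at the top and mast cell, basophil and eosinophil genes at the bottom.

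Many genes of maturing red cells have a counterpart used in most cells, in progenitors or in embryonic red cells. Within-library ratios do not depend on the scaling of libraries, apart from a pseudocount of 0.1 CPM, and 30 such pairs were compared as a description with no test. Most are paralogues, but Epor and Kit, the receptors of late and early precursors, are not relatives. In 28 pairs the ratio was higher toward the partner of maturing red cells in both Ter119pos libraries than in both Ter119neg libraries, in 1 it was lower, and in 1 the libraries overlapped. In 15 pairs the counterpart was called lower and the partner of maturing red cells higher. Of all genes, 40.4% and 35.9% were called in those directions, but these are shares of single genes and not of pairs. Each gene was put on its side of the pair from general knowledge, with earlier results of these data known.

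The widest shift was that of Alas2 over Alas1, from a mean log2 ratio of -3.04 in Ter119neg to 9.53 in Ter119pos. Slc4a1 over Slc4a2 went from 0.70 to 10.44, and Sptb over Sptbn1, the erythroid over the general beta spectrin, from -0.37 to 8.47. Epor over Kit went from -1.82 to 4.41 and Gata1 over Gata2 from 1.59 to 7.70. Pklr over Pkm went from -1.58 to 2.99.

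Per kilobase of transcript, 11 of the 30 pairs had the counterpart higher in Ter119neg and the partner of maturing red cells higher in Ter119pos, while in 17 the latter was higher in both. Of the 11, E2f2 and its counterpart were nearly level in Ter119neg, at 3.09 and 3.12 CPM per kilobase. Hmgb2 and Hmgb1, the pair whose libraries overlapped, differed little in both fractions (75.6 and 81.7, then 117 and 111). Xpo7 was in the first group, with means of 2.21 CPM per kilobase against 26.8 for the general exportin Xpo1 in Ter119neg and 278 against 41.4 in Ter119pos. Nfe2 was in the second, with 22.2 against 15.3 for its relative Nfe2l2 in Ter119neg and 265 against 21.5 in Ter119pos. The pair that went the other way was H1f0 over Hist1h1c, linker histones, whose mean log2 ratio of CPM went from -4.96 to -6.39.

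**Figure D5:**
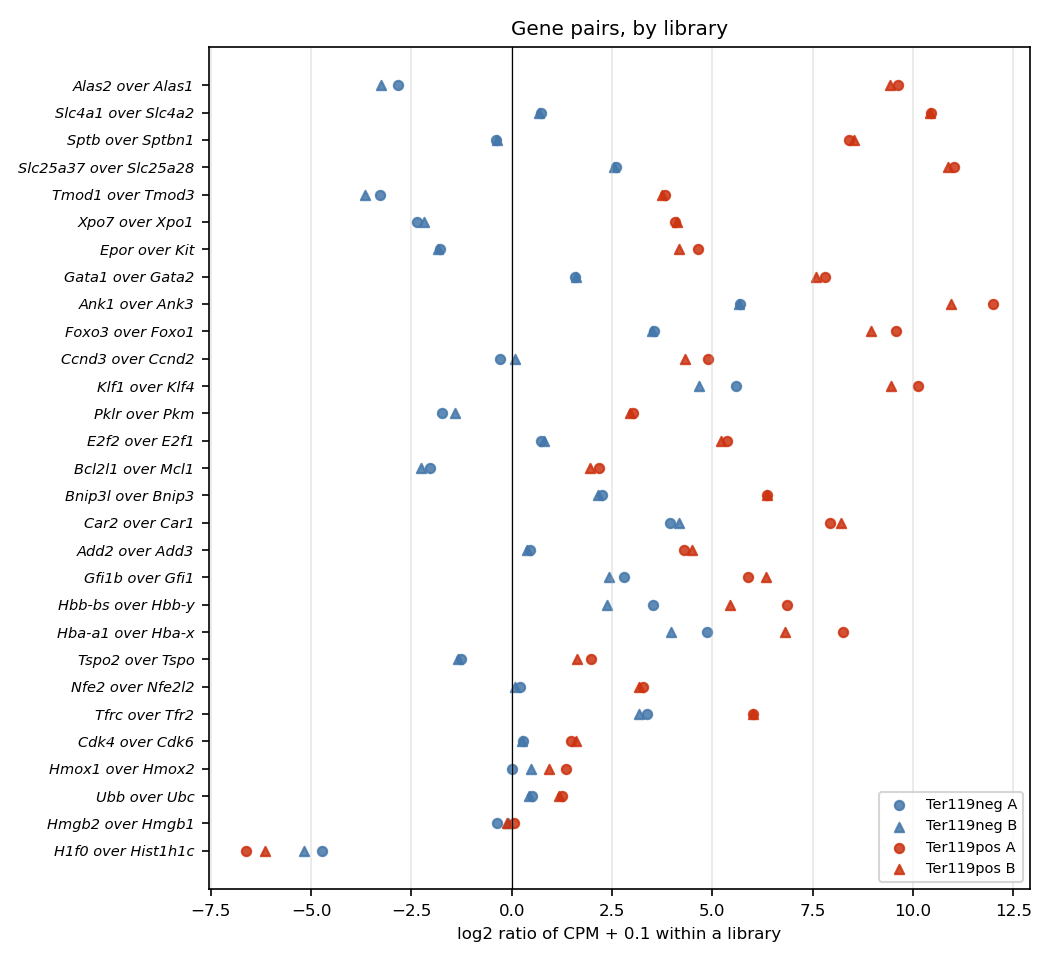
Log2 ratio of the 2 genes of a pair within each WT library, from CPM + 0.1, for pairs ordered by the size of the shift. Blue is Ter119neg and red Ter119pos, circles replicate A and triangles replicate B, and the vertical line marks equal CPM. Red points lie to the right of blue points in every pair drawn except the lowest 2, Hmgb2 over Hmgb1 and H1f0 over Hist1h1c, with Alas2 over Alas1 at the top (mean 9.53 against -3.04).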

How the data were processed

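Libraries were prepared from Trizol-extracted total RNA with a stranded kit and Ribo-Zero depletion, per the labels' protocols. Values are expected counts per gene, which the authors estimated with RSEM from STAR 2.5.3 alignments to GRCm38, per the submitters' processing notes. The version of RSEM is not given in the sources used here, nor is the annotation. The table held 45706 genes. Expected counts were rounded and fitted in R 4.3.3 with edgeR 4.0.16 (TMM, filterByExpr, quasi-likelihood F test), with 1 mean per group over the 8 fetal libraries and 4 residual degrees of freedom, which left 15566 genes. Benjamini-Hochberg adjustment ran over all of these, with calls under 0.05. The SE is the absolute log2 fold change divided by the root of F. A self-test followed the fit, on counts simulated from the Ter119neg WT means and the estimated spread. Of 100 genes changed 2-fold and 100 changed 4-fold, 85 and 96 were called, with 19 calls among unchanged genes.

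Groups came from the labels. Named genes were the 12 called genes a direction of largest fold (mean level 5 CPM or more, libraries apart, no unnamed models or pseudogenes), the 6 with the largest change in CPM, Prmt5, 5 sex-linked genes, both members of each pair, up to 4 members of each list and any member of the globin, heme, transcription factor and membrane lists. Further genes, the small groups of paralogues, the noncoding classes and the 16-fold groups were chosen after their values were seen. The members and all 31 lists were chosen with earlier results of these data known. Gene models are from GENCODE M21. Alternatives used DESeq2 1.42.0, limma 3.58.1, other scalings, filters, blocks and left-out libraries. With 2 libraries a group, precision is limited, and intervals cover counting error only. Splicing was not analysed here. Some genes that these rules pick are not reported here, though they enter the counts of their lists.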

Additional observations from a re-analysis of the deposited data

How the results depend on the processing

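The counts of called genes were within 1.5 times those reported under 16 of 18 alternatives. Under total counts, 2583 genes were higher and 10122 lower, with 2038 and 8706 at 2-fold. With glmTreat, which tests against a 2-fold change, 3340 were higher and 3658 lower, fewer by construction. DESeq2 called 5342 higher and 5476 lower. Leaving out each library gave 5043 to 5288 genes higher and 5540 to 6150 lower, where the single library left in a group was taken to vary as the others do.

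Replicate letter B marks an animal shared by both groups (mouse 4), and letter A does not (mice 3 and 5). The deviations of same-letter WT libraries had r = -0.0678. With 2 libraries a group this value is the same for A and B by construction, so it cannot set the shared animal apart. With the letter as a replicate block, 5590 genes were higher and 6261 lower. With mouse as a block, the median log2 fold change of all genes was -0.15. That comparison rests on mouse 4 alone, and its spread on the mice with Vav-cre, so its calls are not given.

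List medians turned under total counts for heme export and breakdown (-0.37), chromatin (-0.61), erythropoietin and stem cell factor signaling (-0.13), S phase (-0.38), amino acid synthesis (-0.96), pentose phosphate and antioxidant (-0.50) and the mitochondrial genome (-0.96). With the upper quartile, amino acid synthesis and the mitochondrial genome were at -0.09 each, and the latter was at -0.05 with the length trend and -0.36 with the GC trend removed. The oxidative phosphorylation median, -0.01, was 0.02 under RLE and DESeq2, 0.09 with protein-coding normalisation, 0.13 with the mouse block, and 0.01 or 0.08 without Ter119neg A or Ter119pos A.

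Of 183 genes named, these changed sign: under total counts Gp9 (-0.11), Slc40a1 (-0.03), Lgmn (-0.47) and Ubtf (-0.59); with the GC trend removed Rn7s1 (0.40), Rn7s2 (0.30) and Rn7sk (0.30); Rn7sk, from -0.64 to 0.08 as single libraries were left out; and Cdkn1a with the mouse block (0.01) and, from -2.12 to 0.02, as single libraries were left out. The cause was not tested, apart from the shift of all genes by 1.16 that total counts bring. The pair count of 28 was 28 with a pseudocount of 0.5 CPM and 28 or 29 without each library, and promoter shares moved within their binomial intervals.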

Other observations

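Long noncoding RNA genes stood out from protein-coding genes of like abundance. Of 147 long noncoding genes averaging at least 5 CPM in the 4 libraries, 69.4% were called and at least 2-fold higher in Ter119pos and 10.2% at least 2-fold lower (edgeR with TMM), against 27.9% and 20.9% of 7881 protein-coding genes. Between 1 and 5 CPM these shares were 68% and 7.3% of 356 long noncoding genes, against 14% and 55.7% of 2625 protein-coding genes. Below 1 CPM they were 35.1% and 17.5% of 636, against 10.6% and 54.8% of 2310. The average includes Ter119pos, so a gene low in Ter119neg can enter a higher bin only through its rise. Over all 1139 long noncoding genes the median log2 fold change was 1.15, and 0.00 under total counts. For protein-coding genes these medians were -0.36 and -1.52. Under all 6 scalings, 64.6% of the 147 and 17.8% of the 7881 were called higher. This grouping was chosen after the values were seen, and no test of the difference between the classes was made.

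Malat1, an abundant RNA of nuclear speckles, stood at 399 and 501 CPM in Ter119neg and at 10050 and 9186 CPM in Ter119pos (log2 fold change 4.42, SE 0.213, edgeR adjusted p = 1.89e-09). Neat1, the scaffold of paraspeckles, stood at 18.2 and 34.2 CPM in Ter119neg and at 992 and 841 CPM in Ter119pos (5.13, SE 0.285). Kcnq1ot1, a nuclear imprinted RNA, rose by 1.18 but was not called under total counts (0.03, edgeR adjusted p = 0.901), and Meg3, another imprinted RNA, fell by 1.51. Among cytoplasmic messages, Fam46c, a poly(A) polymerase, went from 10.2 and 10.8 CPM to 2764 and 2417 CPM (7.95, SE 0.22), and the poly(A)-binding protein genes Pabpc1 and Pabpc4 rose by 2.38 and 1.86. Of the 6 genes of polyadenylation and RNA decay compared, these 3 rose, 2 fell and 1 was not called. The genes of this paragraph were also chosen after their values were seen.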
